A study of Homo sapiens with 6 samples.

Results

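The regions described here carried an H3K79me2 peak in 1 of 2 lines of 293T cells, and no other peak of H3K79me2 or H3K79me3. They were found by merging the 4 ChIP peak lists on chromosomes 1 to 22, X and Y wherever peaks shared at least 1 bp, and by keeping the merged regions whose peaks came from the control H3K79me2 list alone or from the knockdown H3K79me2 list alone. Of 8899 merged regions, 563 were control-only (6.33%) and 485 were knockdown-only (5.45%), 1048 in all. That balance turned with equal list lengths (a control to knockdown ratio of 0.470) and with scores scaled for depth (0.567), against 1.16 as deposited. Each of them held exactly 1 peak. The regions were thus selected on the presence or absence of called peaks in these 4 lists, so these counts and every value of the peaks themselves are given as a description, with no test.

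The 293T line derives from human embryonic kidney cells and expresses the SV40 large T antigen. The control line stably carried the control hairpin shCTL and the other line stably carried shKDM2B, a short hairpin RNA against KDM2B. Both were otherwise labelled alike, and the labels do not say whether either line was a single clone. Each line gave 1 H3K79me2 ChIP library, 1 H3K79me3 ChIP library and 1 input library without antibody. Since every group is 1 library, differences between the lines could not be tested and no p-value is given. KDM2B itself was not measured in these files, and the knockdown is taken from the labels.

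Methyl groups on lysine 79 of histone H3 are placed by DOT1L, an enzyme that works without a SET domain and is brought to chromatin by factors of transcription elongation. The residue lies on the face of the nucleosome core, not in the histone tail. H3K79me2 and H3K79me3 usually spread together from the start of transcribed genes into their bodies, so that a called peak of the dimethyl form alone is the less usual arrangement. KDM2B is a JmjC-domain protein that binds unmethylated CpG islands, and the study asked whether it acts as an H3K79 demethylase.

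The H3K79me2 libraries differed in ways that bear on every count below. After removal of duplicates the control library held 16018517 tags and the knockdown library 13144744, a ratio of 0.821. The peak caller estimated a fragment length of 148 bp in the control library and 210 bp in the knockdown library. The lists held 6827 control and 6193 knockdown peaks on the chromosomes used. No gene is named and no sequence is shown, because an hg19 annotation or genome was not used here.

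The regions with H3K79me2 alone were narrow and held few tags. Control-only regions had widths from 328 to 8781 bp with a median of 1052 bp (quartiles 639.5 and 1903), and knockdown-only regions from 498 to 7864 bp with a median of 1162 bp (quartiles 874 and 1755). The other peaks of the same lists had median widths of 2735 bp in control and 3169.5 bp in knockdown cells. The median number of tags was 38 in control-only regions (lowest 11, highest 1532) and 31 in knockdown-only regions (lowest 12, highest 643), against 200 and 170 in the other peaks. Under 20 tags were listed in 125 control-only regions (22.2%) and in 97 of 485 knockdown-only regions.

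Scaled to tags per 1000000 filtered tags (RPM), both groups had nearly the same median level. It was 2.37 RPM in control-only regions (95% interval of the median 2.12 to 2.62) and 2.36 RPM in knockdown-only regions (2.21 to 2.59). Control-only regions were the denser ones per length, with a median of 2.28 RPM per kb against 2.01 RPM per kb, and their spread reached further up, to 15.8 against 6.22 RPM per kb. The lists as a whole differed in the same direction, with medians of 3.96 and 3.64 RPM per kb.

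**Figure D1:**
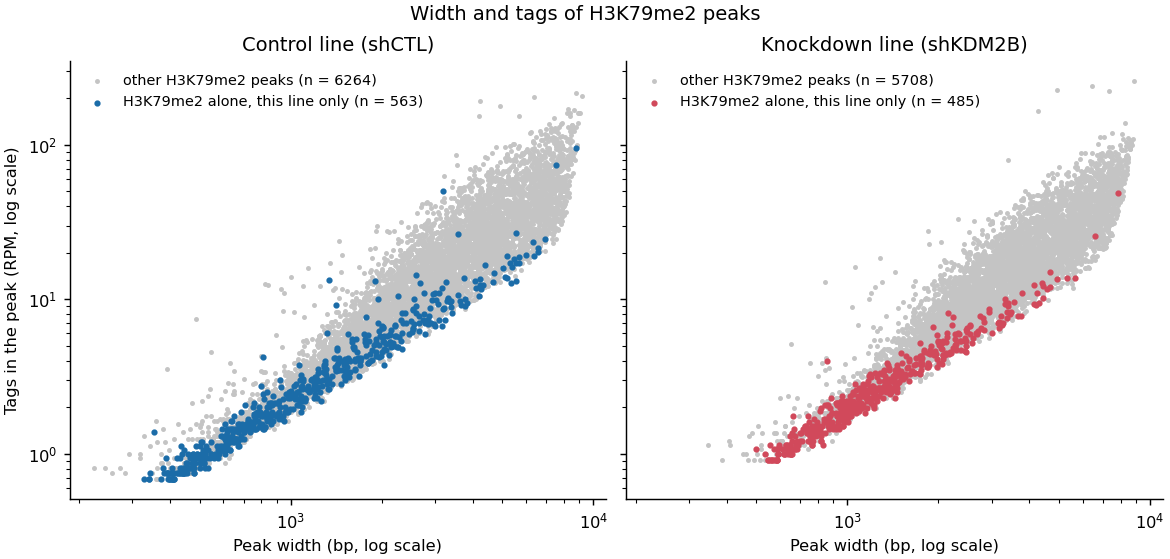
Each point is 1 H3K79me2 peak, with its width in bp on the x axis and its tags in RPM on the y axis, both on log scales; grey points are the other peaks of the list and coloured points the regions with H3K79me2 alone in that line. The coloured points lie along the lower edge of each cloud, and most of the few well above it are in the control panel.

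Few of these regions reached the usual density of an H3K79me2 peak. In the control group 17 of 563 (3.02%) stood above the median RPM per kb of their list, and in the knockdown group 4 of 485 (0.825%) did. More than 5 RPM per kb was found in 10 control-only regions and in 1 knockdown-only region. Together the control-only regions covered 834 kb, which is 3.98% of the length and 1.86% of the tags in the control list. The knockdown-only regions covered 713 kb, 3.40% of the length and 1.4995% of the tags in theirs. Within each group wider regions had a higher tag density and a lower fold enrichment. Across the 563 control-only regions Spearman's rho of width with RPM per kb was 0.73 and with fold it was -0.84, and across the 485 knockdown-only regions it was 0.66 and -0.76. Fold and density share the tags of 1 library, and regions are not replicates. All the regions had also passed the caller's p cutoff, and its part in these correlations was not tested.

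Width classes show the same gradient. Control-only regions under 1 kb numbered 271, with medians of 20 tags, 1.96 RPM per kb and a fold of 7.70. The 31 control-only regions of 4 kb or more had medians of 267 tags, 3.16 RPM per kb and a fold of 3.28. In the knockdown group the 179 regions under 1 kb had medians of 19 tags, 1.80 RPM per kb and a fold of 7.14, and the 16 regions of 4 kb or more had 161.5 tags, 2.57 RPM per kb and a fold of 3.51. Regions of 1 to 2 kb made up 162 of the control group and 210 of the knockdown group. The summit, the point of highest tag pile-up, lay near the middle of the region in both groups, at a median of 0.516 of the width in control-only and 0.497 in knockdown-only regions, as it did in the other peaks (0.496 and 0.501).

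Scores lay close to the calling threshold. The deposited score is 10 times the negative log10 of the caller's p-value and starts at 50. Its median was 63.6 in control-only and 64.1 in knockdown-only regions, against 200 and 154 in the other peaks. A score under 60 was listed for 231 control-only regions (41.0%) and 190 knockdown-only regions (39.2%), against 5.03% and 5.33% of the other peaks. Scores of 100 or more were reached by 60 control-only regions (10.7%) and 49 knockdown-only regions (10.1%).

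Read the other way, the share of listed H3K79me2 peaks that belonged to these regions was lower at higher scores. In the control list 42.3% of the peaks with a score of 50 to 60 did so (231 of 546, 95% interval 38.1 to 46.6%), 27.7% at 60 to 80, 13.9% at 80 to 100 and 4.70% at 100 to 150. In the knockdown list the shares were 38.5% (190 of 494, 95% interval 34.2 to 42.9%), 22.7%, 10.4% and 3.59%. Above 150 the control list contributed 8 of 1955 peaks up to 300 and 1 of 1970 beyond it. The knockdown list contributed 2 of 1955 and 0 of 992, the last with an upper 95% bound of 0.371%.

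**Figure D2:**
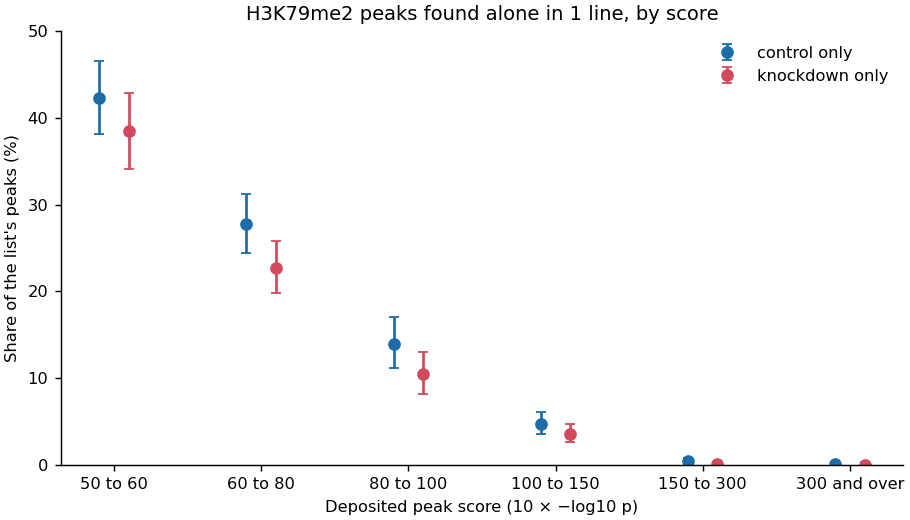
The x axis gives bands of the deposited peak score and the y axis the share of that list's H3K79me2 peaks that were found alone in 1 line, with exact binomial 95% intervals as bars. Both lists fall from about 40% in the lowest band (42.3% and 38.5%) to near 0 above a score of 150.

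The highest-scoring control-only regions outside input peaks were mixed in kind. The first, at chromosome 8, 117765019 to 117768197 (hg19), held 804 tags, or 50.2 RPM (95% counting interval 46.8 to 53.8), at a score of 657 and a fold of 3.46. It was also the densest region of either group, at 15.8 RPM per kb. The nearest peak of each of the 4 lists lay 10.4 to 10.5 kb away, so that all 4 lists had peaks at a similar distance.

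The second, at chromosome 3, 48881845 to 48885419, stood at 26.3 RPM (23.8 to 28.9), with a score of 286 and a fold of 5.11. Here the nearest peaks of the 4 lists, other control-only regions aside, lay 158 kb away. The third, at chromosome 11, 38356668 to 38358642, was the most isolated of the 5: it held 93 tags, 5.81 RPM (4.69 to 7.11), and the nearest peak of each list was 1825 kb away. The remaining pair were weaker in tags. Chromosome 19, 13842541 to 13843594, had 40 tags, 2.50 RPM and a fold of 13.5, and chromosome 1, 249200981 to 249202275, had 61 tags, 3.81 RPM and a fold of 6.92.

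The highest-scoring knockdown-only regions were close to each other in density. They ran from a score of 177 down to 137, from 43 to 102 tags, and from 2.45 to 2.83 RPM per kb. The first, at chromosome 9, 130965734 to 130968471, held 102 tags, 7.76 RPM (6.33 to 9.42), at a fold of 5.87, and had H3K79me2 peaks of both lines 11.8 kb away. The next lay at chromosome 19, 18111971 to 18114104 (75 tags, 5.71 RPM), and chromosome 17, 78965444 to 78966636 (43 tags, 3.27 RPM). At that chromosome 17 site the nearest control H3K79me2 peak, 42.4 kb away, was itself a control-only region, whereas the nearest peaks of the other lists were 228 to 229 kb away. The last were chromosome 6, 3226166 to 3227680 (51 tags, 3.88 RPM), and chromosome 19, 41857383 to 41859646 (73 tags, 5.55 RPM).

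The 5 longest control-only regions held 324 to 1532 tags at scores of 57.4 to 113. The longest, at chromosome 1, 24298179 to 24306959, spanned 8781 bp with 1532 tags, 95.6 RPM (90.9 to 100.6), yet a score of 57.4 and the lowest fold of the group, 2.36. Peaks of all 4 lists lay 9.23 to 9.56 kb from it. The region at chromosome 7, 102987822 to 102995377, held 1185 tags, 73.98 RPM (69.8 to 78.3), at a score of 113. A knockdown H3K79me2 peak lay 1.77 kb from it, a control H3K79me3 peak 2.19 kb and another control-only region 2.44 kb. The nearest control H3K79me2 peak outside the control-only group and the nearest knockdown H3K79me3 peak were 46.6 and 47.96 kb away. The region at chromosome 14, 57716142 to 57722707 (21.6 RPM), lay 1.78 kb from a control H3K79me3 peak and 135 kb from any peak of the other lists.

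Chromosome 2, 129069205 to 129076130 (24.5 RPM), and chromosome 12, 123880873 to 123887453 (20.2 RPM), completed the longest control-only regions. The former had its nearest peaks 213 to 214 kb away, and the latter had peaks of all 4 lists between 4.71 and 6.04 kb away. Among the densest control-only regions only chromosome 1, 167189917 to 167191331, had not already been named: it held 147 tags in 1415 bp, 6.49 RPM per kb, with another control-only region 38.5 kb away and the nearest peaks of the 4 lists otherwise 344 to 379 kb away.

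In the knockdown group 1 region stood apart in tags. Chromosome 14, 70818663 to 70826526, held 643 tags, 48.9 RPM (45.2 to 52.8), in 7864 bp at 6.22 RPM per kb, with a score of 61.9 and other peaks 53.0 to 55.1 kb away. The next longest, at chromosome 1, 57110296 to 57116873, held 25.8 RPM (23.1 to 28.7). It had H3K79me2 peaks of both lines at 64.9 and 65.4 kb, but no H3K79me3 peak within 1456 kb.

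The other long knockdown-only regions held 13.5 to 13.8 RPM and lay at chromosome 12, 1856876 to 1862521, chromosome 18, 74160307 to 74165647, and chromosome 5, 61636623 to 61641568. The other dense ones were chromosome 6, 89790372 to 89791228, and chromosome 2, 242639276 to 242641435, at 4.62 and 3.77 RPM per kb, and both lay 0.141 to 0.596 kb from peaks of all 4 lists. The last, at chromosome 19, 5338794 to 5340708, had 3.46 RPM per kb.

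A peak of H3K79me3 was missing more often where H3K79me2 was found in 1 line than where it was found in both. Of the 7467 merged regions with any H3K79me2 peak, 1287 (17.2%) had it in control only and 752 (10.1%) in knockdown only. Without H3K79me3 in either line were 563 of those 1287 (43.7%, 95% interval 41.0 to 46.5%) and 485 of those 752 (64.5%, 61.0 to 67.9%), against 498 of 5428 regions with H3K79me2 in both lines (9.17%, 8.42 to 9.97%). The remaining control-only H3K79me2 regions carried H3K79me3 in both lines in 505 cases, and the remaining knockdown-only ones in 98. These shares come from the same lists that chose the regions and have no test.

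The nearest relatives of these regions are the 498 with H3K79me2 in both lines and no H3K79me3. Their peaks scored higher in both lines, while in level they were close to the control-only regions and above the knockdown-only ones. The control peaks in those 498 regions had a median of 37 tags and 2.24 RPM per kb, close to the 38 tags and 2.28 RPM per kb of control-only regions. Their median score was 84.9 (95% interval of the median 80.8 to 88.8), against 63.6 (61.7 to 65.3) for control-only regions, and their fold was 6.81 against 5.46. The knockdown peaks in the 498 regions had 42 tags against 31, 2.20 RPM per kb (2.15 to 2.24) against 2.01 (1.99 to 2.07), a width of 1442 bp against 1162 bp, and a score of 79.95 against 64.1, while their median fold of 5.77 was close to 5.81. None of these peaks of the 498 regions passed 4.28 RPM per kb in control or 3.97 in knockdown cells, and 10 control-only regions above 5 RPM per kb lie beyond the first range, as the knockdown-only regions at 6.22 and 4.62 RPM per kb lie beyond the second.

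Most of the regions had no H3K79me2 peak of the other line within 10 kb. A knockdown H3K79me2 peak lay within 10 kb of 109 of 563 control-only regions (19.4%, 95% interval 16.2 to 22.9%), and within 1 kb of 34. A control H3K79me2 peak lay within 10 kb of 79 of 485 knockdown-only regions (16.3%, 13.1 to 19.9%), and within 1 kb of 28. Within 50 kb the shares were 45.6% and 44.3%. The median distance was 65.2 kb for control-only and 60.9 kb for knockdown-only regions. Peaks of the same list outside the group lay farther, at medians of 72.8 and 80.7 kb. The list of the other line kept its regions with H3K79me2 alone, whereas the same list was taken without them.

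Distances to H3K79me3 were shorter for the control-only group at the median and the lower quartile, but longer at the upper quartile. The quartiles were 13.1 and 181 kb in control-only and 21.5 and 166 kb in knockdown-only regions. A peak of H3K79me3 of either line lay within 10 kb of 109 control-only regions (19.4%, 16.2 to 22.9%) and of 63 knockdown-only regions (13.0%, 10.1 to 16.3%), with median distances of 46.2 and 62.2 kb. The intervals of the shares overlap at their ends. In the 498 regions with H3K79me2 in both lines the share was 11.04% (8.43 to 14.1%) and the median 67.0 kb. The knockdown H3K79me3 list, the longest of the 4, was the nearer one in both groups. Control-only regions had 101 with a knockdown H3K79me3 peak within 10 kb and 76 with a control one, and knockdown-only regions had 57 and 47. The share of 19.4% fell to 9.75% when peaks under a fold of 5.67 were left out, and to 10.1% when peaks with scores under 100 were, where the knockdown-only share was 9.82% and 9.81%. Both limits applied to all lists, so they also removed H3K79me3 peaks to which the distance was measured. They changed the regions too: 265 of 441 control-only regions (fold) and 60 of 365 (score) were among those first found. The fall is therefore no check on the distances above.

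**Figure D3:**
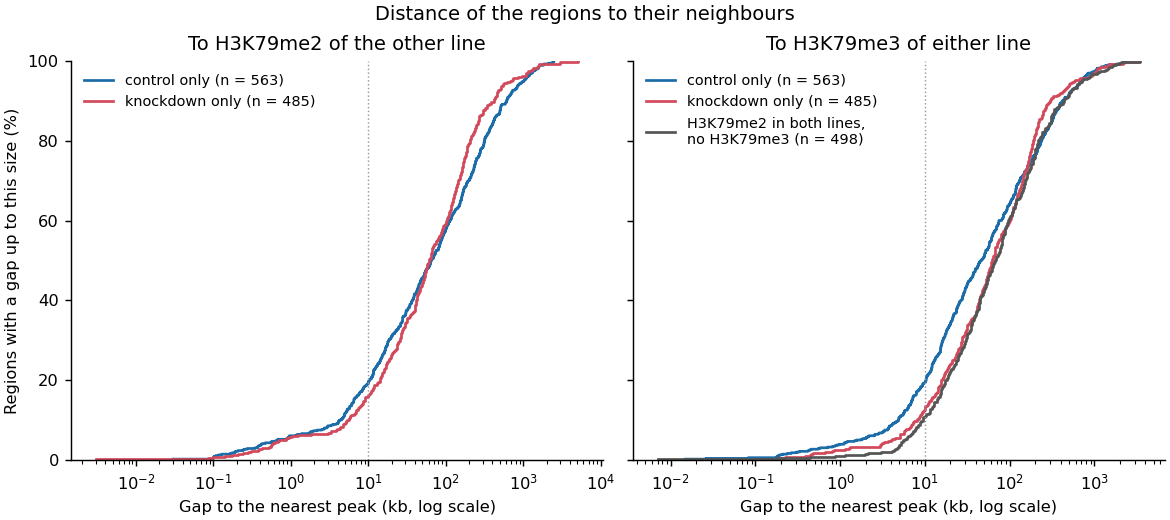
Each curve gives the share of regions (y axis, %) whose nearest peak lies within the distance on the x axis (kb, log scale), to H3K79me2 of the other line on the left and to H3K79me3 of either line on the right; the dotted line marks 10 kb. On the right the control-only curve lies above the others at 10 kb (19.4% against 13.0% and 11.04%), and on the left the curves of both groups lie close together.

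Control-only regions near other peaks held more tags than those far from them, while in the knockdown group the median tags of these classes were alike. Median density was higher near other peaks in both groups. Any peak of the other 3 ChIP lists lay within 10 kb of 136 control-only regions (24.2%), and these had a median of 56 tags and 2.47 RPM per kb. The 177 control-only regions more than 100 kb from such a peak (31.4%) had 30 tags and 2.17 RPM per kb. In the knockdown group the same classes held 92 (18.97%) and 169 regions (34.8%), with medians of 35 and 34 tags and widths of 1162 and 1298 bp. Their median densities were 2.20 and 2.04 RPM per kb. Regions 10 to 100 kb away had medians of 36 tags in the control-only and 28 tags in the knockdown-only group. Only 10 control-only and 6 knockdown-only regions had peaks of the other lists within 10 kb on both sides.

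Some control-only and knockdown-only regions lay side by side. In 12 places a control-only and a knockdown-only region were at most 1 kb apart, with gaps of 98 to 949 bp. The closest pair was on chromosome 3, where a control peak at 42695873 to 42697382 (66 tags, 4.12 RPM) followed a knockdown peak at 42694643 to 42695774 (35 tags, 2.66 RPM). On chromosome 12 a control peak of 19 tags at 65174733 to 65175382 lay 100 bp before a knockdown peak of 50 tags at 65175483 to 65177547. On chromosome 22 a knockdown peak of 68 tags at 19277571 to 19279315 ended 174 bp before a control peak of 36 tags at 19279490 to 19280605. The knockdown peak was the wider of the pair in 10 of 12 places and had more RPM in 9. At these 12 places both lines had an H3K79me2 call within 1 kb, but the calls shared no bp, and so each met the rule. Called peaks give no level of the other line at either site, so whether the mark differed there cannot be told.

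Close neighbours within 1 group were more frequent in control. Consecutive control-only regions lay within 10 kb of each other in 16 places, and consecutive knockdown-only regions in 2. Within 1 kb the numbers were 8 and 2. The fragment estimate, which sets the window that the caller scans, was 148 bp in control and 210 bp in knockdown cells, and its part in this difference was not tested.

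Input signal touched few of the regions. An input peak of either line overlapped 15 control-only regions (2.66%, 1.499 to 4.36%) and 5 knockdown-only regions (1.03%, 0.336 to 2.39%), against 3.43% of the other peaks of each list. Those on input peaks were short, with median widths of 514 and 648 bp and medians of 18 and 14 tags. The shares are per peak and were not adjusted for width. The other peaks were the wider ones, with medians of 2735 and 3169.5 bp against 1052 and 1162 bp. A lower share therefore does not show less input signal per length.

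The regions lay on every chromosome used. Control-only regions outnumbered knockdown-only regions on 16 of 24 chromosomes, and the reverse held on 6. The difference between the groups, 78 regions, is a net value over chromosomes that went both ways. Chromosomes 4, 7 and 8 together had 56 more control-only than knockdown-only regions, and chromosomes 10, 1 and 18 had 11, 10 and 7 more. Chromosome 7 had 39 control-only and 17 knockdown-only regions, 10.8% and 5.31% of its H3K79me2 peaks in the respective list. Chromosome 4 had 32 and 14 (14.0% and 7.41%), and chromosome 8 had 23 and 7 (9.47% and 3.37%). On chromosomes 12, 19, 20 and 22 the knockdown-only group was the larger by 5 regions each, with 28, 29, 17 and 20 against 23, 24, 12 and 15. That direction turned at scores of at least 100 on chromosomes 12, 20 and 22 (9, 7 and 5 knockdown-only against 18, 10 and 9 control-only), and at folds of at least 5.67 on chromosome 19 (21 against 27). The control-only excess on chromosome 4 also turned at scores of at least 100, with 11 control-only against 14 knockdown-only regions. Chromosomes 7 and 8 kept it there, with 19 against 12 and 14 against 4. Chromosomes of 1 library are not replicates, and these were picked out after the counts were seen.

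**Figure D4:**
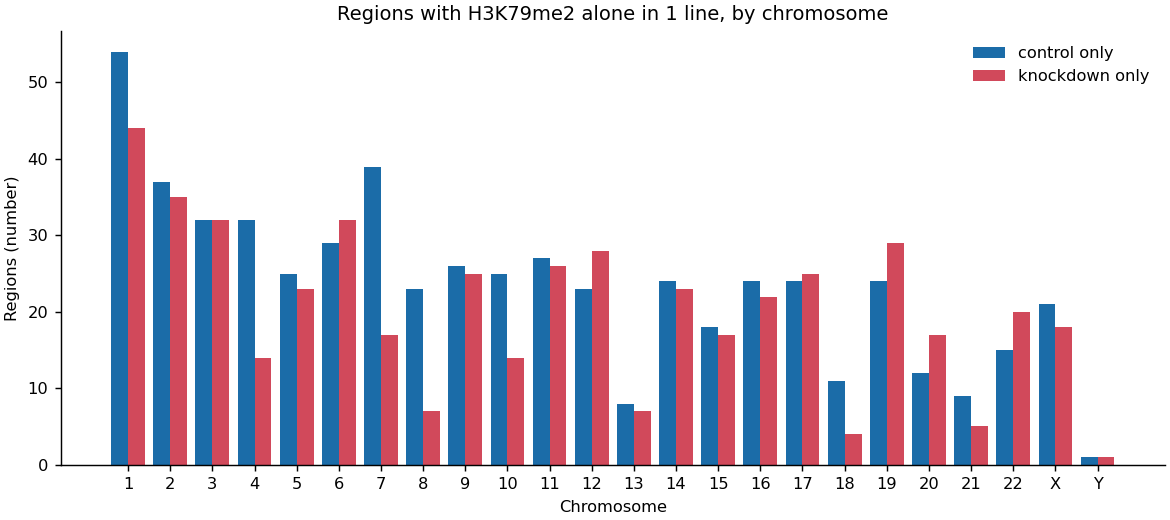
Bars give the number of control-only and knockdown-only regions (y axis) on each chromosome (x axis). Chromosomes 4, 7 and 8 show the widest excess of control-only regions (32, 39 and 23 against 14, 17 and 7), and chromosomes 12, 19, 20 and 22 each show 5 more knockdown-only regions.

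The balance between the groups turned with the way the lists were made comparable. As deposited, control-only regions were 1.16 times as many as knockdown-only regions. With each list cut to its 5597 highest-scoring peaks, 263 regions were control-only and 559 knockdown-only, a ratio of 0.470. With scores scaled to the shallowest ChIP library the numbers were 369 and 651, a ratio of 0.567. Both settings shorten the control H3K79me2 list more than the knockdown H3K79me2 list. Equal lengths also cut the knockdown H3K79me3 list, from 7066 to 5597 peaks, and left the control H3K79me3 list, at 5597, whole. The scaling also applied to both H3K79me3 lists, whose libraries held 17044011 (control) and 16389356 (knockdown) filtered tags, against 13144744 in the shallowest. The part of each list in the turn was not tested. A stricter score of at least 100 in all lists gave 365 and 214, a ratio of 1.71, of which 60 and 49 were among the regions as first found. The others entered because a weaker peak of another list had been removed from their site. On chromosome 8 control-only regions were the more numerous in both rescaled settings too, with 14 against 12 and 22 against 12. On chromosome 7 they were not, with 11 against 26 and 24 against 26, nor on chromosome 4, with 12 against 15 and 19 against 20. On chromosomes 12, 19, 20 and 22 knockdown-only regions stayed the more numerous in both. With equal lengths they numbered 21, 44, 22 and 21 against 11, 22, 2 and 6. With scaled scores they numbered 32, 40, 22 and 25 against 14, 21, 6 and 9.

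**Figure D5:**
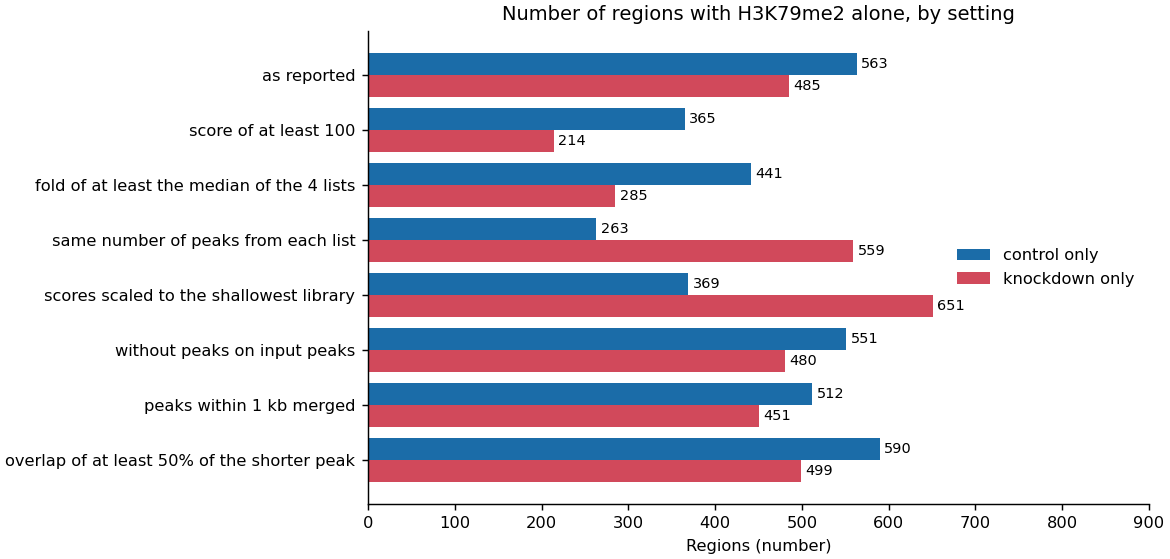
Bars give the number of control-only and knockdown-only regions (x axis) under each way of preparing the lists (y axis). Control-only regions are the larger group in every setting but the equal-number and depth-scaled ones, where they number 263 against 559 and 369 against 651.

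The rule asks for 1 shared bp, and in both lists the 3 regions just inside it held, by their median, more tags than the 3 just outside. The control-only regions nearest to a peak of another list lay 15, 26 and 30 bp from it, on chromosomes 8, 17 and 15, with 25, 44 and 35 tags. The knockdown-only ones lay 3, 84 and 98 bp away, on chromosomes X, 2 and 3, with 26, 39 and 35 tags. Just outside, control H3K79me2 peaks that shared only 55, 56 and 59 bp with another peak, on chromosomes 5, 6 and 11, held 16, 29 and 20 tags. The knockdown H3K79me2 peaks just outside shared 56, 59 and 108 bp, on chromosomes 6, 11 and 22, with 23, 31 and 14 tags. On chromosomes 6 and 11 the control and knockdown peaks just outside overlapped each other, so both lists show the same places there. With 3 regions per side the difference in tags is a description only.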

How the data were processed

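The 6 deposited peak lists, 1 per library, were used. Per the submitters' processing notes alignment used Bowtie2, of a version not stated, and the build hg19 (GRCh37). The authors called peaks in each library with MACS 1.4.2, per the file headers, without a control file, at a p cutoff of 1e-05, with 1 tag kept per position and a regional background over 10000 bp. The deposited tags of a peak are a whole-number count, not normalized. The fold enrichment, as deposited, is a ratio to the background of the same library. The deposited significance column is used as a score, since its lowest values of 50 show it to be 10 times a negative log10 p. Scores and folds are the authors' and rank or filter peaks within a list; medians of both groups are set side by side as descriptions, and 3 alternatives apply 1 limit or 1 scale to all lists. Positions are 1-based.

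Merging of peaks from 1 shared bp, on chromosomes 1 to 22, X and Y, was done in Python 3.11.15 with pandas 2.3.3 and numpy 2.4.6. The merged regions were checked against bedtools 2.31.1, and the code was tested on simulated data. Tags were divided by the filtered tags of the library (RPM). Intervals (scipy 1.17.1) are exact Clopper-Pearson for shares, exact Poisson for RPM and order-statistic intervals for medians, all at 95%. They cover counting error or the spread over regions, not replicate error. Sites below the caller's threshold have no value in the lists, so absence of a peak gives no level.

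The regions and lists were chosen with earlier results of these data known. Named regions are, per group and outside input peaks, the 5 with the highest score, the 5 longest and the 5 with the most RPM per kb. The planned counts on promoters, genes and gene lists were not made, because an hg19 annotation was not used here. The side-by-side pairs and the chromosomes named were chosen after the values were seen. Alternatives covered the score, the fold, equal list lengths, depth, input peaks, merging distance and overlap.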

Additional observations from a re-analysis of the deposited data

How the results depend on the processing

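Of 133 values recomputed (19 results under 7 alternatives), 69 stayed within the limits set for them, 62 moved beyond and 2 reversed. The ratio of control-only to knockdown-only regions reversed from 1.16 to 0.470 with equal list lengths and to 0.567 with scaled scores, and moved to 1.71 at scores of at least 100 and 1.55 at folds of at least 5.67. Both reversals shorten the control H3K79me2 list, from 6827 to 5597 and 6245 peaks, more than the knockdown H3K79me2 list. With equal lengths the knockdown H3K79me3 list was also cut, from 7066 to 5597 peaks. With scaled scores the scale applied to both H3K79me3 lists as well. In neither setting was it tested which list turned the ratio. The count of control-only regions fell to 365 (score), 263 (equal lengths) and 369 (scaled scores), and that of knockdown-only regions to 214 (score) and 285 (fold). The count of knockdown-only regions rose to 559 (equal lengths) and 651 (scaled scores), within the limits set, and 261 and 485 of these were among those first found. Stricter lists by construction remove weak regions, and other regions enter where a peak of another list is removed from their site.

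At scores of at least 100, control-only medians were 66 tags, 1441 bp, a score of 124, a fold of 6.20 and 2.74 RPM per kb, and knockdown-only medians 59 tags, 1772 bp, 115, 6.08 and 2.49. At folds of at least 5.67 they were 27 tags, 779 bp, 78.7, 7.09 and 2.16, and 24 tags, 956 bp, 68.9, 6.94 and 1.89. With equal lengths they were 46 tags, 1205 bp, 97.9, 6.40 and 2.46, and 44 tags, 1459 bp, 80.98 and 2.22 RPM per kb. With scaled scores they were 45 tags, 1180 bp, 78.1 and 2.39 RPM per kb, and 35 tags, 1273 bp and 2.08 RPM per kb. Each setting has its own regions. Those first found made up 60 of 365 control-only and 49 of 214 knockdown-only regions (score), and 265 of 441 and 255 of 285 (fold). They made up 142 of 263 and 261 of 559 with equal lengths, and 317 of 369 and 485 of 651 with scaled scores. By construction the score and fold limits keep the medians of score and fold above them.

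The share within 10 kb of H3K79me2 of the other line moved in control-only regions to 6.85% (score), 4.08% (fold), 13.3% (equal lengths) and 14.3% (merging within 1 kb), and in knockdown-only regions to 9.35%, 10.5%, 10.4% and 11.3%, and to 12.4% with scaled scores. The share within 10 kb of H3K79me3 moved in control-only regions to 10.1% (score), 9.75% (fold), 15.97% (equal lengths), 15.99% (scaled scores) and 15.8% (merging), and in knockdown-only regions to 9.81%, 9.82% and 9.84% in the first 3 of these. The score, fold and equal-length settings also removed peaks from the lists to which distances were measured. Removal of peaks on input peaks set the share on input to 0 in both groups by construction and moved no other value. An overlap of at least 50% of the shorter peak moved none.

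No paired analysis was possible because each group has 1 library, and leaving out a replicate was not possible for the same reason. The share of regions on promoters or genes was not run. Depth limits the lower end: regions with 11 or 12 tags lie at the smallest count the caller listed in these libraries, and a peak of the same strength could be missed in the shallower library.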

Other observations

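Outside the chromosomes used, on alternative haplotype and unplaced sequences of hg19, merging the 4 ChIP lists gave 251 regions. Of these, 28 had H3K79me2 alone in control and 12 had it alone in knockdown cells. The input lists held 92 control and 86 knockdown peaks on the same sequences. Reads there can match several places, and whether these regions repeat sites on the main chromosomes was not tested.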
